A study of Homo sapiens with 6 samples.

Results

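The 38 genes described here encode proteins of the human centromere and kinetochore. They were picked out by a list of symbols, and all 38 were found among the 35993 genes of the deposited count table. They were sorted by where their proteins act. The inner kinetochore held 17 genes, of which CENPA, HJURP and CENPB belong to centromeric chromatin and 14 to the constitutive centromere-associated network (CCAN). The outer kinetochore held 12 genes, namely the Ndc80 complex (NDC80, NUF2, SPC24, SPC25), 3 genes of the Mis12 complex (DSN1, MIS12, NSL1), the Ska complex (SKA1, SKA2, SKA3) and the corona proteins CENPE and CENPF. The inner centromere held 5 genes, the chromosomal passenger genes INCENP, BIRC5 and CDCA8 and the shugoshins SGO1 and SGO2. MAD2L1, BUB3 and ZWINT were taken as 3 checkpoint genes. CENPJ carries a centromere name but its product works in centriole growth, so it was kept apart from every layer.

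RNA was sequenced from MIA PaCa-2, an established human pancreatic carcinoma line, in 3 Control libraries and in 3 libraries from cells exposed for 48 h to 4 µM rhCYGB, a recombinant human cytoglobin protein. All cells had been moved to medium with 1% fetal bovine serum the day before treatment. The labels do not say whether Control cells received a vehicle, and they do not say whether the libraries of a group came from separate cultures. The study describes its experiments as repeated independently at least 3 times, without saying how these libraries were grown, so the p-values measure the spread between these libraries. The data represent 1 cell line, 1 dose and 1 time.

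The centromere is the part of a chromosome where nucleosomes carry the histone variant CENP-A, and the CCAN is a group of proteins that sits on this chromatin through the whole cell cycle. In mitosis the CCAN recruits the Mis12 and Ndc80 complexes, and Ndc80 grips spindle microtubules with the help of the Ska complex. The chromosomal passenger complex corrects wrong attachments, the shugoshins protect cohesion between sister chromatids, and the spindle checkpoint delays anaphase until every kinetochore is attached. Many of these genes are transcribed mainly in G2 and mitosis, so their RNA is abundant in cultures with many dividing cells.

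Gene counts summed to between 35258179 and 42271299 per Control library and between 34838399 and 39878450 per rhCYGB library. Reads per gene are given as CPM, the count of a gene relative to the library size scaled by edgeR's TMM factors, in which 3 counts correspond to between 0.0669 and 0.0902 CPM. Of 5 genes looked up for the carcinoma line, KRT8, KRT18, KRT19 and VIM were abundant and EPCAM had 0 counts in every library. VIM encodes vimentin, which the paper used as a marker of pancreatic stellate cells. The log2 fold changes of KRT8, KRT19, KRT18 and VIM, rhCYGB against Control, were -0.81, -0.61, 0.04 and 0.55. Of 10 markers of blood, endothelial, fibroblast, liver, acinar and islet cells, 6 had 0 counts in every library, among them PTPRC, PECAM1 and DCN. The summed level of these 10 markers was 143 to 159 CPM in Control and 81.9 to 86.0 CPM in rhCYGB, nearly all of it from CD68 and CDH5. CDH5 was at 109 to 122 CPM in Control and 10.5 to 13.6 CPM in rhCYGB. CD68 was at 34.3 to 38.0 CPM in Control and 70.4 to 72.4 CPM in rhCYGB. The part of these genes in the results below was not tested.

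The RNA of the centromere and kinetochore genes was lower after rhCYGB in nearly the whole set. All 38 genes passed the filter on low counts that left 14728 genes for testing. In edgeR's quasi-likelihood fit, with p-values adjusted over the 14728 genes by the Benjamini-Hochberg method, 36 of the 38 were lower at an adjusted p under 0.05, against 38.6% of all tested genes. With the further limit of a 2-fold difference, 23 of the 38 (60.5%) were lower, against 14.7% of all tested genes. No member was higher by 2-fold, against 12.4% of all tested genes, and none was higher by the adjusted p alone, against 39% of all tested genes. CENPL and MIS12 did not pass in either direction. With total counts and no scaling factors, which moved the median of all tested genes to -0.17, both passed as lower, at log2 fold changes of -0.30 and -0.19 (edgeR, adjusted p = 0.00122 and 0.0249). The 3 Control and the 3 rhCYGB values did not overlap in 37 of the 38 genes, each time with rhCYGB lower. Of all tested genes, 79.5% had groups without overlap, 39.7% with rhCYGB lower and 39.8% with rhCYGB higher. The exception among the 38 was MIS12.

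The median log2 fold change, rhCYGB against Control, was -1.15 over the 38 genes and 0.00 over all tested genes, whose 25th and 75th percentiles were -0.62 and 0.56. Together the 38 genes held 0.190% to 0.198% of the gene counts of a Control library and 0.0852% to 0.0855% of those of an rhCYGB library. By layer, the median was -0.84 for the inner kinetochore, -1.48 for the outer kinetochore, -1.16 for the inner centromere and -1.78 for the checkpoint genes. Lower by 2-fold were 8 of 17 inner kinetochore genes, 9 of 12 outer kinetochore genes, 4 of 5 inner centromere genes and 2 of 3 checkpoint genes. The spread inside a layer was wider than the distance between layers, from -3.76 for SPC24 to -0.02 for MIS12 within the outer kinetochore. The checkpoint median rests on 3 listed genes, of which BUB3 was at -0.24. Checkpoint genes outside the set, given below, included BUB1B at -1.84, TTK at -0.85 and MAD1L1 at 0.73. The medians of the layers are thus descriptions of the listed genes, and the difference between layers was not tested.

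**Figure D1:**
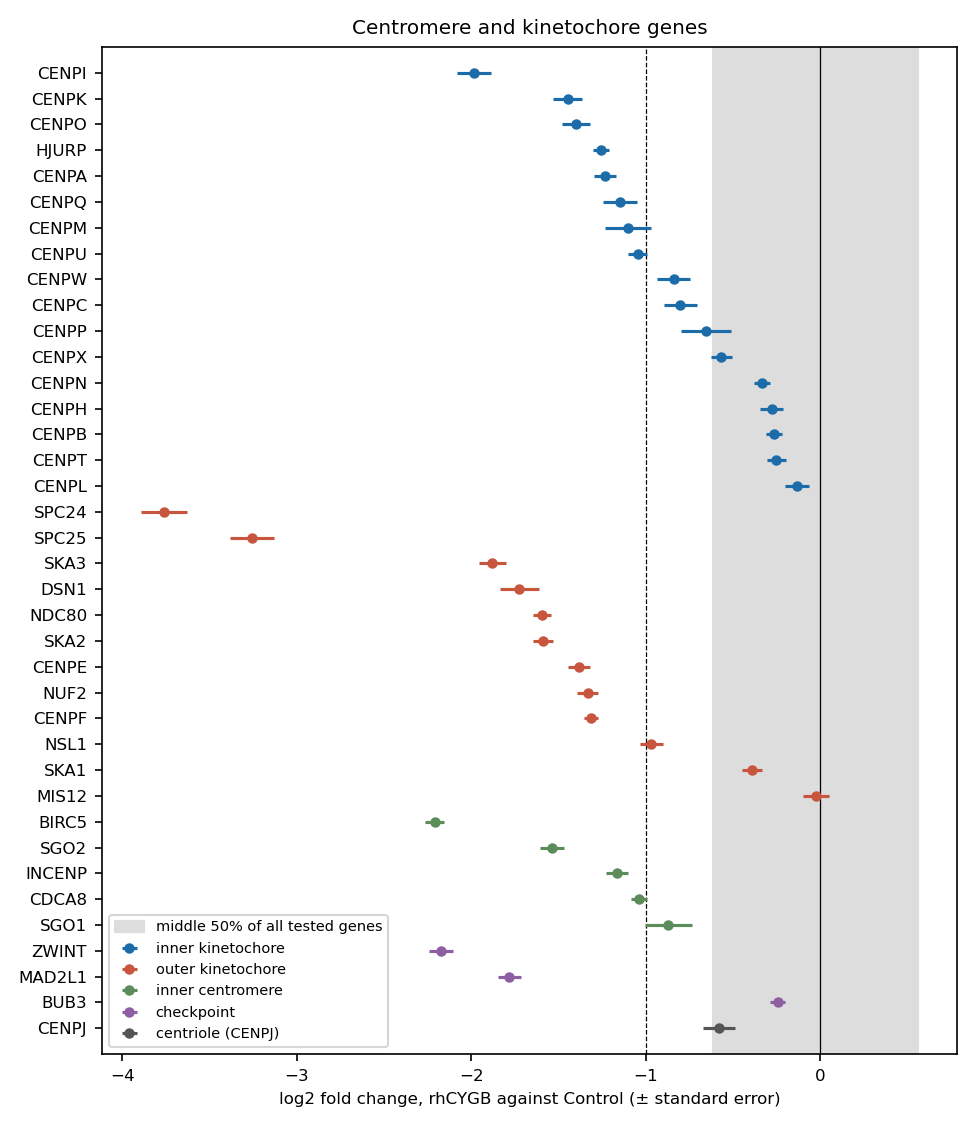
Log2 fold change of each of the 38 genes, rhCYGB against Control, with its standard error, from edgeR's quasi-likelihood fit on 3 libraries per group. Colours mark the layers, the grey band spans the 25th to 75th percentile of all tested genes (-0.62 to 0.56) and the dashed line marks a 2-fold lower level. SPC24 at -3.76 and SPC25 at -3.26 lie farthest to the left, and 23 genes lie left of the dashed line.

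Genes of dividing cells moved with the set. MKI67, a protein of cycling nuclei, was at 274, 271 and 286 CPM in Control libraries 1 to 3 and at 64.1, 68.7 and 75.1 CPM in rhCYGB libraries 1 to 3. Its level was 3.995-fold lower (edgeR). The log2 fold changes of TOP2A, CCNB1 and CCNA2, which act in late S phase, G2 and mitosis, were -1.51, -1.34 and -1.65. The summed level of these 4 markers was 1150 to 1230 CPM in Control and 395 to 402 CPM in rhCYGB. In bulk RNA, fewer cells in G2 and mitosis and less RNA of these genes per dividing cell cannot be told apart, and the part of the cell cycle in the values of the 38 genes was not tested.

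Since many members moved together, their promoters were read from the RefSeq table on GRCh38.p14, which held 38 promoters of 33 of the 38 genes, each spanning 250 bases before to 50 bases after the transcript start. CENPH, CENPL, CENPM, BIRC5 and BUB3 had no entry. The searched motifs, on both strands, were the cell-cycle homology region (CHR) as TTTGAA or as its variant form TTCGAA, an element known from G2/M promoters, the CCAAT box bound by NF-Y, and an E2F site in any of the forms TTTGGCGC, TTTGCCGC, TTTCGCGC or TTTCCCGC. TTTGAA was in 16 of the 38 member promoters (42.1%) and in 15.2% of all 35116 promoters of the table, and TTCGAA was in 3 (7.89%) and in 1.45%. Either form was in 18 (47.4%) and in 16.4%. CCAAT was in 24 (63.2%) and in 34.6%, and the E2F letters were in 4 (10.5%) and in 3.31%. The 4 promoters with E2F letters belonged to 3 genes, because both MIS12 promoters were counted. By gene, a CHR match was in 17, CCAAT in 21 and the E2F letters in 3 of the 33 members. Among tested genes in the promoter table, 1663 had a CHR match and 9409 had none. For CCAAT these numbers were 4711 and 6361, and for the E2F letters 740 and 10332. Neighbouring or shared bases can serve more than 1 motif, as in CDCA8, where TTTGAA and the reverse of CCAAT overlap.

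The 8 genes with the lowest log2 fold change among those whose window from 120 bases before the start to 10 bases from the start on held a CHR match are shown, so that the match can be seen in its place. SPC24 and MIS12, the genes with the lowest and the highest log2 fold change, are shown after them for contrast and were chosen after their values were seen. The sequences run 5′ to 3′ on the gene's strand, and capitals mark CHR letters or the CCAAT box in either orientation (read from the other strand, TTTGAA appears as TTCAAA and the box as ATTGG).
SPC25 (chr2:168890421-168890550, minus strand): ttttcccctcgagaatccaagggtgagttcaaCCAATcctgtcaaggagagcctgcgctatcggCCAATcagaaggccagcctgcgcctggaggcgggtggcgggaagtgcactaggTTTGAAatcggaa
ZWINT (chr10:56361250-56361379, minus strand): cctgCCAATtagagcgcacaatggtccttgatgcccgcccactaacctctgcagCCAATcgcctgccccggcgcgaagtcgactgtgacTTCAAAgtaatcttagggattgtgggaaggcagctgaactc
SKA3 (chr13:21176543-21176672, minus strand): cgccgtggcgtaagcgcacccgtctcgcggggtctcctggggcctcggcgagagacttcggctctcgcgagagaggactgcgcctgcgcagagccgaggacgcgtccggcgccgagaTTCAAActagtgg
NDC80 (chr18:2571437-2571566, plus strand): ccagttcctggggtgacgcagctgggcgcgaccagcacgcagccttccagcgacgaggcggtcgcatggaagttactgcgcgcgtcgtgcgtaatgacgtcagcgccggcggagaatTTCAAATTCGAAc
HJURP (chr2:233854526-233854655, minus strand): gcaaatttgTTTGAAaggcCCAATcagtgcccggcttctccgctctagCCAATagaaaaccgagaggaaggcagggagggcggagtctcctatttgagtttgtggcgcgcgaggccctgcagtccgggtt
CENPA (chr2:26785936-26786065, plus strand): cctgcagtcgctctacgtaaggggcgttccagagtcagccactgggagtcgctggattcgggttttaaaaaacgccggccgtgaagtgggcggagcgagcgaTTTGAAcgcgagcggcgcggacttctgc
INCENP (chr11:62123891-62124020, plus strand): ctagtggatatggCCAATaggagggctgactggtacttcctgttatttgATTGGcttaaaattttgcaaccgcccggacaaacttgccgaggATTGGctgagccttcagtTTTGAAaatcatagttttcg
CDCA8 (chr1:37692396-37692525, plus strand): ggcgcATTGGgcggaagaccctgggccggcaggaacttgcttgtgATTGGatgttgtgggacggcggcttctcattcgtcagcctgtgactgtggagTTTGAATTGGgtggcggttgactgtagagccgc
SPC24 (chr19:11155773-11155902, minus strand): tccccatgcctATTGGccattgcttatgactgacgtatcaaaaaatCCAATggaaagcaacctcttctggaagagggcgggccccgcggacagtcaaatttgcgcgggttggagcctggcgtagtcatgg
MIS12 (chr17:5486254-5486383, plus strand): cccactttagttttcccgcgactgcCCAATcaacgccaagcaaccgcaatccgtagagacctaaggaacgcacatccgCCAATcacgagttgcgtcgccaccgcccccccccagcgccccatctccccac

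In SPC25, SKA3 and NDC80 the CHR match began 3 bases before the annotated transcript start, and in NDC80 a second match followed it directly. It began 10 bases before the start in INCENP, 18 in CENPA, 23 in CDCA8, 31 in the ZWINT promoter shown and 111 in HJURP. The windows of SPC24 and MIS12 held a pair of CCAAT boxes each and no CHR match. The MIS12 window also held E2F letters, not capitalised here, beginning 109 bases before the start, and the SPC24 window held none. The 17 matched genes with a CHR match anywhere in the promoter had a median log2 fold change of -1.26, and the 16 without had -1.10. For the CCAAT box these medians were -1.16 with and -1.36 without, and for the E2F letters -1.05 and -1.29. For TTCGAA alone, found in 3 genes, they were -0.87 and -1.24. The medians of these 3 motifs were thus less negative with a match than without. Lower by 2-fold were 12 of the 17 and 9 of the 16. Among all tested genes in the promoter table, 19.0% of those with a CHR match and 13.7% of those without were lower by 2-fold. A match is a run of letters and not a shown binding site.

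**Figure D2:**
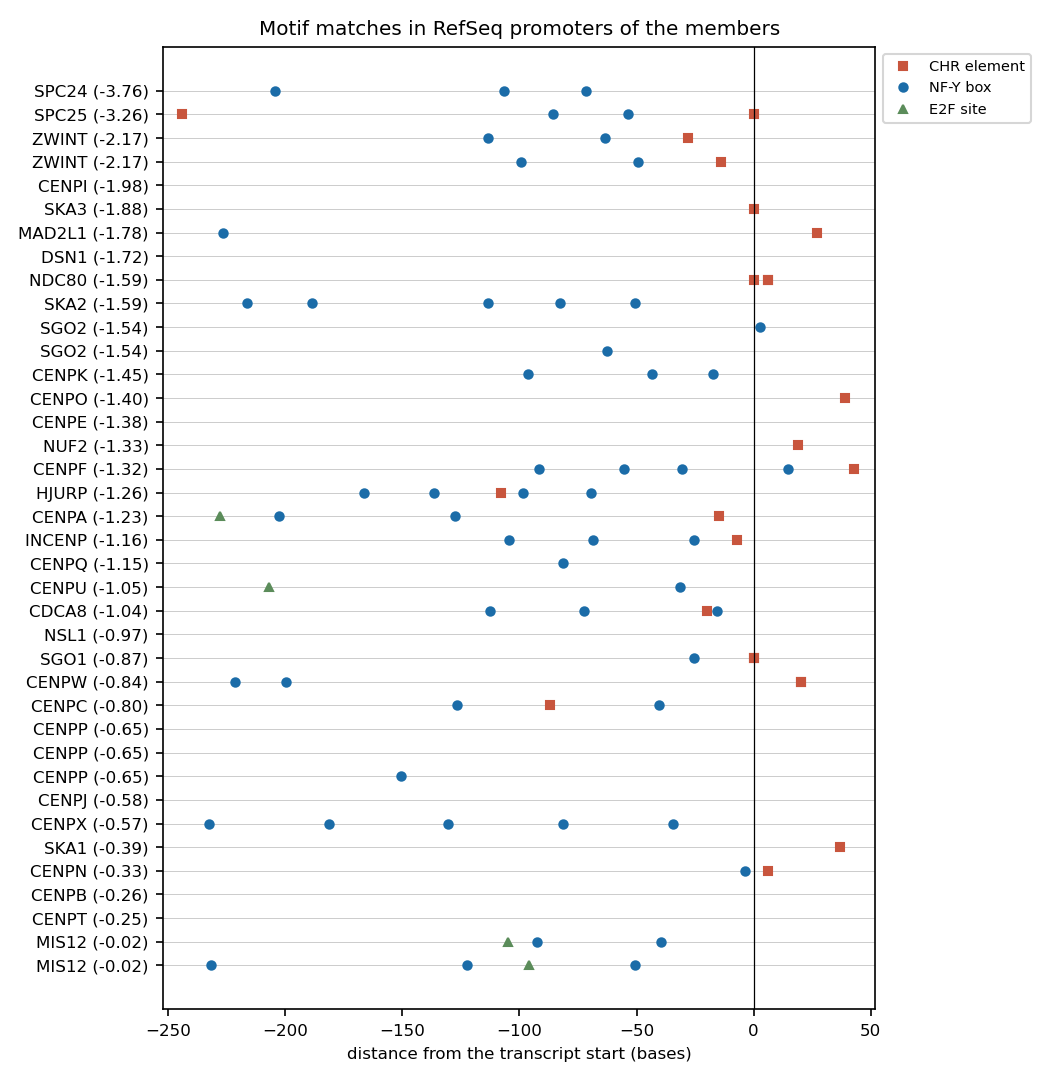
Positions of the motif matches in the 38 RefSeq promoters of 33 member genes. Each line is 1 promoter, ordered by log2 fold change (in parentheses, rhCYGB against Control), the horizontal axis is the distance in bases from the transcript start to the centre of a match, squares mark CHR matches, circles CCAAT boxes (the NF-Y box) and triangles E2F letters. Most CHR matches lie within the last bases before the start or downstream of it, and SPC24 and MIS12, at opposite ends, have no square.

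The Ndc80 complex, the main microtubule coupler of the kinetochore, contained the largest differences of the set, and its 4 genes fell unequally. SPC24 (gene ID 147841) was at 21.6, 20.7 and 22.7 CPM in Control libraries 1 to 3 and at 1.35, 1.35 and 2.06 CPM in rhCYGB libraries 1 to 3. The groups were far apart, with raw counts of 805 to 929 in Control and 45 to 76 in rhCYGB. The log2 fold change of SPC24 was -3.76 ± 0.13 (SE, n = 3 per group), a level 13.6-fold lower (edgeR with Benjamini-Hochberg adjustment, adjusted p = 9.86e-13), and it held rank 66 of the 14728 tested genes, counted from the lowest value. SPC25 (gene ID 57405), the partner of SPC24 in the end of the complex that binds the centromere side, was at 23.0, 22.5 and 22.8 CPM in Control and at 2.18, 1.89 and 3.04 CPM in rhCYGB. Its log2 fold change was -3.26 ± 0.12 (SE), a level 9.55-fold lower (edgeR, adjusted p = 2.61e-12).

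NDC80 (gene ID 10403) and NUF2 (gene ID 83540) form the other end of the same complex, which holds the microtubule. NDC80 was at 57.5, 57.7 and 57.2 CPM in Control and at 19.8, 19.4 and 18.0 CPM in rhCYGB, a log2 fold change of -1.59 ± 0.05 (SE; edgeR, adjusted p = 5.97e-13). NUF2 was at 66.5, 68.9 and 76.5 CPM in Control and at 29.3, 27.1 and 27.7 CPM in rhCYGB, a log2 fold change of -1.33 ± 0.06 (SE; edgeR, adjusted p = 1.43e-11). Both were clearly separated between the groups, yet their changes were much smaller than those of SPC24 and SPC25.

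The balance within the complex was read from the deposited FPKM, which is relative to transcript length and so allows a comparison between genes. The ratio of SPC24 to NDC80 FPKM was 0.357, 0.362 and 0.383 in Control and 0.0670, 0.0798 and 0.106 in rhCYGB. SPC24 made up 11.01% ± 0.03 (SD, n = 3) of the summed FPKM of the 4 genes in Control and 2.90% ± 0.57 in rhCYGB, and SPC25 made up 18.8% ± 0.64 and 6.78% ± 1.70. NUF2 made up 40.2% ± 1.62 and 55.7% ± 0.92. The shares of all 4 subunits did not overlap between the groups, which gives p = 0.1 in an exact two-sided permutation test, the smallest value that 3 against 3 libraries allow.

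The Mis12 complex, which joins the CCAN to Ndc80, contained both a strong fall and the member with the smallest difference. DSN1 (gene ID 79980) was at 23.3, 22.7 and 25.6 CPM in Control and at 6.70, 8.87 and 6.18 CPM in rhCYGB, a log2 fold change of -1.72 ± 0.11 (SE; edgeR, adjusted p = 1.00e-09). NSL1 was at 23.7, 24.7 and 25.7 CPM in Control and at 13.1, 12.1 and 12.7 CPM in rhCYGB, a log2 fold change of -0.97 ± 0.07 (SE; edgeR, adjusted p = 2.89e-09), which lay just short of 2-fold. MIS12 (gene ID 79003), which gives the complex its name, was at 17.7, 19.1 and 18.7 CPM in Control and at 19.3, 16.5 and 18.8 CPM in rhCYGB. The groups of MIS12 overlapped, and its log2 fold change was -0.02 ± 0.07 (SE; edgeR, adjusted p = 0.768). The ratio of DSN1 to MIS12 FPKM was 1.29 to 1.48 in Control and 0.355 to 0.558 in rhCYGB, so that DSN1 was the more abundant of this pair per length in each Control library and the less abundant in each rhCYGB library.

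The Ska complex, which keeps Ndc80 on moving microtubule ends, was also unequal. SKA3 was at 25.7, 26.0 and 28.0 CPM in Control and at 7.83, 6.79 and 7.03 CPM in rhCYGB, a log2 fold change of -1.88 ± 0.08 (SE; edgeR, adjusted p = 7.01e-12). SKA2 was at 58.0, 55.6 and 60.0 CPM in Control and at 20.6, 18.4 and 18.7 CPM in rhCYGB, a log2 fold change of -1.59 ± 0.06 (SE; edgeR, adjusted p = 1.53e-12). These 2 genes were lower by 2-fold, and the third was not. SKA1 was at 28.8, 28.4 and 29.6 CPM in Control and at 23.0, 22.2 and 21.1 CPM in rhCYGB, a log2 fold change of -0.39 ± 0.06 (SE; edgeR, adjusted p = 1.87e-05). SKA1 made up 25.2% ± 0.32 (SD, n = 3) of the summed FPKM of the complex in Control and 45.1% ± 1.12 in rhCYGB, again without overlap (exact permutation test, p = 0.1).

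The corona proteins CENPE, a motor that moves chromosomes to the spindle equator, and CENPF, a large coiled-coil protein of the outermost kinetochore, had log2 fold changes close to each other. CENPE had a mean of 52.9 ± 2.7 CPM (SD, n = 3) in Control and 20.3 ± 1.5 CPM in rhCYGB, a log2 fold change of -1.38. CENPF had a mean of 231 ± 9.6 CPM in Control and 92.9 ± 1.4 CPM in rhCYGB, a log2 fold change of -1.32. The ratio of CENPE to CENPF FPKM was 0.283 ± 0.019 in Control and 0.269 ± 0.018 in rhCYGB, with overlapping libraries (exact permutation test, p = 0.5).

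**Figure D3:**
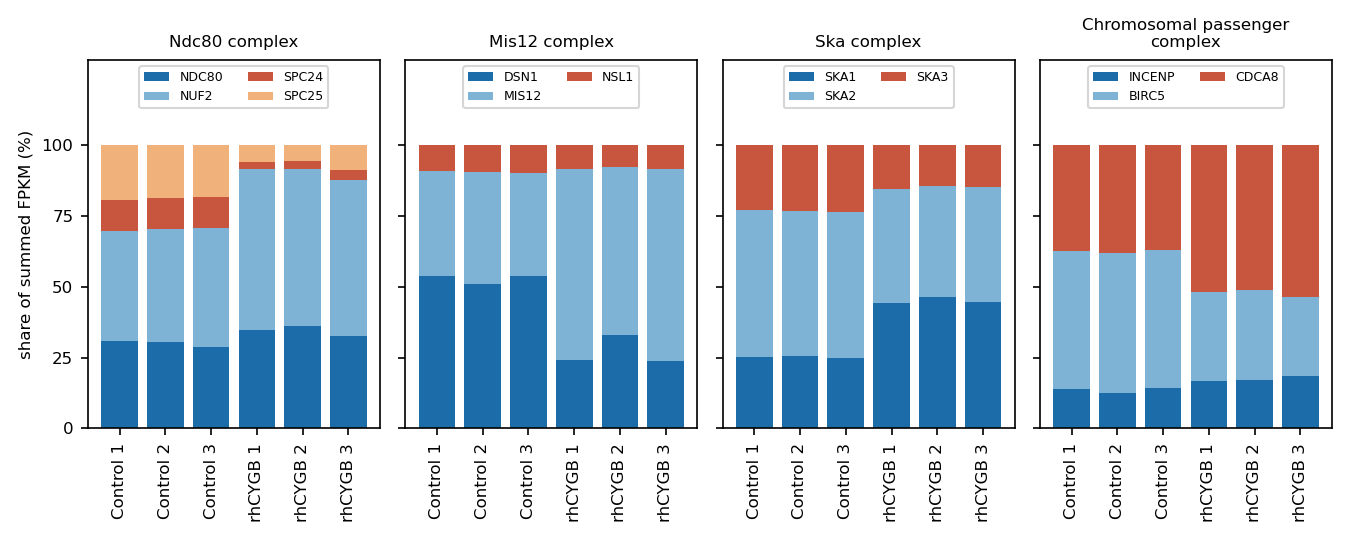
Share of each gene in the summed FPKM of the set's genes of its complex (vertical axis, percent). Bars show the 3 Control and 3 rhCYGB libraries for the Ndc80, Mis12, Ska and chromosomal passenger complexes. PMF1 of the Mis12 complex (mean FPKM 23.6 in Control, 18.9 in rhCYGB) is outside the set and not counted. AURKB of the passenger complex (47.2 and 13.7) is not counted either. The SPC24 and SPC25 segments average 11.01% and 18.8% in Control and 2.90% and 6.78% in rhCYGB. MIS12, SKA1 and CDCA8 take larger shares of the genes shown for their complexes in rhCYGB.

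In the inner centromere all 5 genes fell, with BIRC5 furthest. BIRC5 encodes survivin, the passenger subunit that reads a mitotic histone mark, and is also known as an inhibitor of apoptosis. It was at 106, 110 and 112 CPM in Control and at 24.6, 25.04 and 21.6 CPM in rhCYGB, a log2 fold change of -2.21 ± 0.06 (SE; edgeR, adjusted p = 2.98e-14). INCENP, the scaffold that binds the Aurora B kinase, was at 48.9, 44.7 and 52.1 CPM in Control and at 20.8, 21.6 and 22.7 CPM in rhCYGB, a log2 fold change of -1.16 ± 0.06 (SE; edgeR, adjusted p = 1.80e-10). CDCA8, which encodes borealin, was at 74.7, 77.2 and 77.8 CPM in Control and at 37.3, 36.6 and 37.8 CPM in rhCYGB, a log2 fold change of -1.04 ± 0.04 (SE; edgeR, adjusted p = 1.02e-11). The log2 fold changes of INCENP and CDCA8 lay close together. Their FPKM ratio was 0.362 ± 0.028 (SD, n = 3) in Control and 0.332 ± 0.012 in rhCYGB with overlapping libraries (exact permutation test, p = 0.3), whereas the ratio of BIRC5 to CDCA8 was 1.30 ± 0.01 and 0.583 ± 0.055 without overlap (exact permutation test, p = 0.1).

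Of the shugoshins, SGO2 was at 33.3, 37.6 and 37.7 CPM in Control and at 13.0, 12.4 and 12.0 CPM in rhCYGB, a log2 fold change of -1.54 ± 0.07 (SE; edgeR, adjusted p = 1.43e-11). SGO1, the form that guards mitotic cohesion, had the smallest difference of the layer. It was at 8.21, 7.43 and 8.93 CPM in Control and at 3.66, 4.84 and 4.94 CPM in rhCYGB, a log2 fold change of -0.87 ± 0.14 (SE; edgeR, adjusted p = 2.88e-05). The groups of both genes were apart, at a lower count for SGO1, which had between 136 and 364 counts per library.

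The 3 checkpoint genes split into a pair with large changes and BUB3. ZWINT, a kinetochore protein that binds KNL1 and ZW10, was at 42.8, 43.8 and 43.3 CPM in Control and at 10.6, 9.29 and 8.90 CPM in rhCYGB, a log2 fold change of -2.17 ± 0.07 (SE; edgeR, adjusted p = 3.05e-13). MAD2L1, the MAD2 protein that holds CDC20 in the checkpoint complex, was at 60.0, 66.1 and 61.8 CPM in Control and at 19.7, 16.7 and 18.3 CPM in rhCYGB, a log2 fold change of -1.78 ± 0.06 (SE; edgeR, adjusted p = 1.33e-12). BUB3, which brings the BUB1 and BUBR1 kinases to the kinetochore, was at 165, 156 and 156 CPM in Control and at 140, 128 and 135 CPM in rhCYGB. The groups of BUB3 did not overlap, but its log2 fold change was only -0.24 ± 0.04 (SE; edgeR, adjusted p = 7.80e-05). The ratio of MAD2L1 to BUB3 FPKM was 0.416 to 0.484 in Control and 0.144 to 0.153 in rhCYGB.

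**Figure D4:**
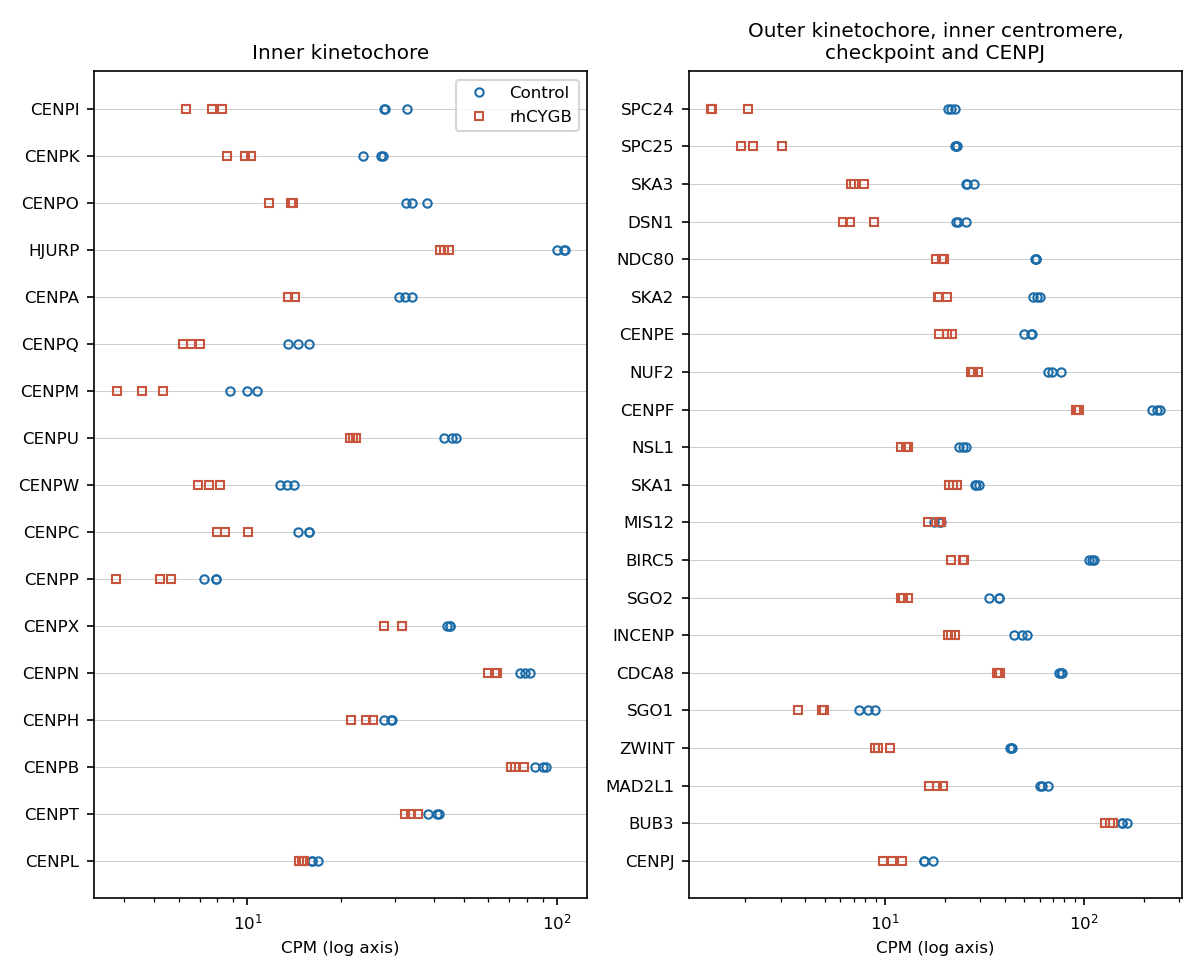
CPM of each gene in the 3 Control libraries (circles) and the 3 rhCYGB libraries (squares) on a log axis, with the inner kinetochore genes on the left and the other layers and CENPJ on the right. Squares lie left of circles in 37 of the 38 genes, with the widest gap in SPC24, and only in MIS12 do the symbols overlap.

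The inner kinetochore was the layer in which most genes fell by less than 2-fold, although 16 of its 17 genes passed the test. In centromeric chromatin, CENPA, the histone that marks the centromere, and HJURP, the chaperone that deposits it, fell with log2 fold changes of -1.23 and -1.26. The ratio of HJURP to CENPA FPKM was 1.41 ± 0.03 (SD, n = 3) in Control and 1.38 ± 0.06 in rhCYGB, with overlapping libraries (exact permutation test, p = 0.6). CENPB, which binds a short sequence in alpha-satellite DNA and is present at most centromeres in all phases, had a log2 fold change of -0.26 and a mean of 89.1 ± 3.6 CPM in Control and 74.1 ± 3.6 CPM in rhCYGB.

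Within the CCAN, members of the same subcomplex differed. In the group of CENPH, CENPI, CENPK and CENPM, the log2 fold changes were -0.28, -1.98, -1.45 and -1.10. CENPI (gene ID 2491) was at 27.8, 27.6 and 32.7 CPM in Control and at 6.33, 8.27 and 7.70 CPM in rhCYGB, with an SE of 0.10 on its log2 fold change (edgeR, adjusted p = 5.00e-11). CENPK was at 23.7, 27.5 and 27.02 CPM in Control and at 10.3, 8.57 and 9.82 CPM in rhCYGB (SE 0.08; edgeR, adjusted p = 3.75e-10). Both had every rhCYGB library well under every Control library, whereas CENPH, their partner, had means of 28.7 ± 0.92 CPM (SD, n = 3) and 23.7 ± 1.9 CPM.

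The pair CENPL and CENPN, which contacts the CENP-A nucleosome, was among the least changed. CENPL (gene ID 91687) was at 16.1, 16.9 and 16.2 CPM in Control and at 15.2, 14.6 and 15.1 CPM in rhCYGB. Its groups did not overlap, but the difference was small, with a log2 fold change of -0.13 ± 0.07 (SE; edgeR, adjusted p = 0.0991). CENPN had a log2 fold change of -0.33 on counts, and its FPKM was 19.2 ± 0.71 (SD, n = 3) in Control and 19.0 ± 0.89 in rhCYGB. With limma on log2(FPKM + 1) and on log2(FPKM + 0.1), its call was lost (log2 fold change -0.01, adjusted p = 0.866 in each).

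In the group of CENPO, CENPP, CENPQ and CENPU, which helps to bring the kinase PLK1 to the kinetochore, the log2 fold changes were -1.40, -0.65, -1.15 and -1.05. In the histone-fold group of CENPT, CENPW and CENPX they were -0.25, -0.84 and -0.57. Outside the set, CENPS of this histone-fold group had -1.10, and ITGB3BP, of the group of CENPO, had -0.85. CENPC, the scaffold that ties the CENP-A nucleosome to the Mis12 complex, had a log2 fold change of -0.80. These genes passed edgeR's test, with adjusted p-values between 1.30e-10 for CENPU and 0.000699 for CENPT. By the deposited positions, the spans of CENPN, CENPO, CENPP, CENPT and CENPU overlap those of other genes with counts. The span of CENPF overlaps that of ABHD17AP3, which had 19 counts in total. The paper's libraries were made with a stranded mRNA kit. Whether the counting used strand is not given in the sources used here, so reads of these genes may be shared in part. For CENPP, the member with the lowest mean CPM in Control at 7.68 ± 0.39 (SD, n = 3), the overlapping gene NOL8 was itself higher after rhCYGB, with a log2 fold change of 1.01.

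CENPJ, the centriole gene, was at 15.7, 15.8 and 17.6 CPM in Control and at 10.9, 12.2 and 9.77 CPM in rhCYGB, a log2 fold change of -0.58 ± 0.09 (SE; edgeR, adjusted p = 3.69e-05). Its groups did not overlap and it fell by less than 2-fold.

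Per length, the order of the genes was reshuffled. In Control the highest mean FPKM values were those of CENPX at 56.7 ± 0.42 (SD, n = 3), BIRC5 at 39.7 ± 1.4, NUF2 at 33.8 ± 2.7, HJURP at 30.6 ± 1.1 and CDCA8 at 30.4 ± 0.87, of which HJURP and CDCA8 did not differ beyond their spread. In rhCYGB they were CENPX at 34.6 ± 2.3, CENPB at 21.3 ± 1.4, BUB3 at 19.3 ± 1.3 and CENPN at 19.0 ± 0.89. The rhCYGB values of BUB3 overlapped both those of CENPB and those of CENPN, so the order of these places is not settled. BIRC5 moved from place 2 to place 11 of 38, ZWINT from 9 to 21, SPC25 from 16 to 33 and SPC24 from 25 to 37. MIS12 moved from place 31 to place 16. CENPP was the lowest in both groups, at 0.941 ± 0.050 and 0.573 ± 0.128 FPKM.

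The FPKM ratios between genes were taken for 14 pairs, chosen after the values were seen. Of these, 11 pairs did not overlap between the groups, a share close to the 79.5% of single tested genes without overlap, each with an exact permutation p of 0.1, or 0.127 after Benjamini-Hochberg adjustment over the 14 pairs, and no pair could pass 0.05 with 3 libraries per group. The 3 pairs that overlapped were HJURP with CENPA, CENPE with CENPF, and INCENP with CDCA8.

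A further 23 genes of the same machinery that are not in the set showed a similar picture. Of these, 20 were lower by the adjusted p, against 38.6% of all tested genes, and 13 of them by 2-fold, against 14.7%. By the adjusted p 2 were higher, against 39%. The remaining gene, ZW10, did not pass, with a log2 fold change of -0.03 (edgeR, adjusted p = 0.631). Over the 23 genes the median log2 fold change was -1.10. The 2 lowest were ESPL1 and KNL1. ESPL1, the protease separase that opens cohesin at anaphase, was at 32.2, 34.0 and 33.6 CPM in Control and at 4.63, 5.23 and 5.99 CPM in rhCYGB, a log2 fold change of -2.65. KNL1, the scaffold that works with Mis12 and Ndc80, was at 36.4, 38.0 and 40.1 CPM in Control and at 10.5, 8.81 and 9.68 CPM in rhCYGB, a log2 fold change of -1.98. Genes of the checkpoint among these included BUB1B at -1.84, TRIP13 at -1.43, BUB1 at -1.22 and TTK at -0.85. CDC20, which MAD2 holds in the checkpoint complex, fell less, at -0.26. The Aurora B gene AURKB stood at -1.61.

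The 2 genes that rose both belong to the MAD2 part of the checkpoint. MAD1L1, which anchors MAD2 at unattached kinetochores, was at 48.9, 49.3 and 45.2 CPM in Control and at 83.6, 79.3 and 75.8 CPM in rhCYGB, a log2 fold change of 0.73 ± 0.05 (SE; edgeR, adjusted p = 2.99e-09). MAD2L1BP, whose product p31comet helps to take the checkpoint complex apart, was at 22.3, 22.6 and 22.2 CPM in Control and at 32.0, 32.9 and 32.3 CPM in rhCYGB, a log2 fold change of 0.53 ± 0.05 (SE; edgeR, adjusted p = 2.24e-07). Both had every rhCYGB library above every Control library, while MAD2L1 itself fell.

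The transcript table listed 121 transcripts of the 38 genes, of which 94 could be tested. By edgeR's test over all 32577 tested transcripts, 36 of the 94 were lower by 2-fold, against 8.32% of all tested transcripts, and 1 was higher by 2-fold, against 8.62%. By the adjusted p alone 43 were lower, against 14.8%, and 50 did not pass. A transcript that did not pass is not shown to be unchanged.

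The single rising transcript belonged to CENPN. Its variant 3, of 1449 nt, had 269, 388 and 276 counts in Control and 697, 761 and 657 counts in rhCYGB, a log2 fold change of 1.31 ± 0.17 (SE; edgeR, adjusted p = 0.00295). Its variant 2, of 4644 nt, had 2136, 2628 and 2770 counts in Control and 759, 840 and 1300 counts in rhCYGB, a log2 fold change of -1.27 ± 0.21 (SE; edgeR, adjusted p = 0.00825). Variant 2 held 77.9% ± 4.8 (SD, n = 3) of the CENPN counts in Control and 43.1% ± 11.3 in rhCYGB, and variant 3 held 9.62% ± 1.4 and 31.7% ± 3.8, both without overlap (exact permutation test, p = 0.1 each).

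In 4 other genes the passing transcripts fell by amounts more than 1 apart on the log2 scale. ZWINT variant 2 had 606, 614 and 377 counts in Control and 41, 21 and 44 counts in rhCYGB, a log2 fold change of -3.82, whereas variants 1 and 3 had -1.92 and -1.76. SGO2 variant 2 had 107, 224 and 269 counts in Control and 0, 0 and 2 counts in rhCYGB, so no fold is given, while the main variant 1 had a log2 fold change of -1.53. BIRC5 variants 3, 1 and 2 had log2 fold changes of -2.88, -2.26 and -1.48, and variant 1 held 77.9% ± 1.0 (SD, n = 3) of the counts in Control and 79.4% ± 3.5 in rhCYGB. In CENPK, variants 3, 2 and 1 had -2.56, -1.85 and -1.39. The counts assigned to each variant rest on the deposited transcript assignment.

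**Figure D5:**
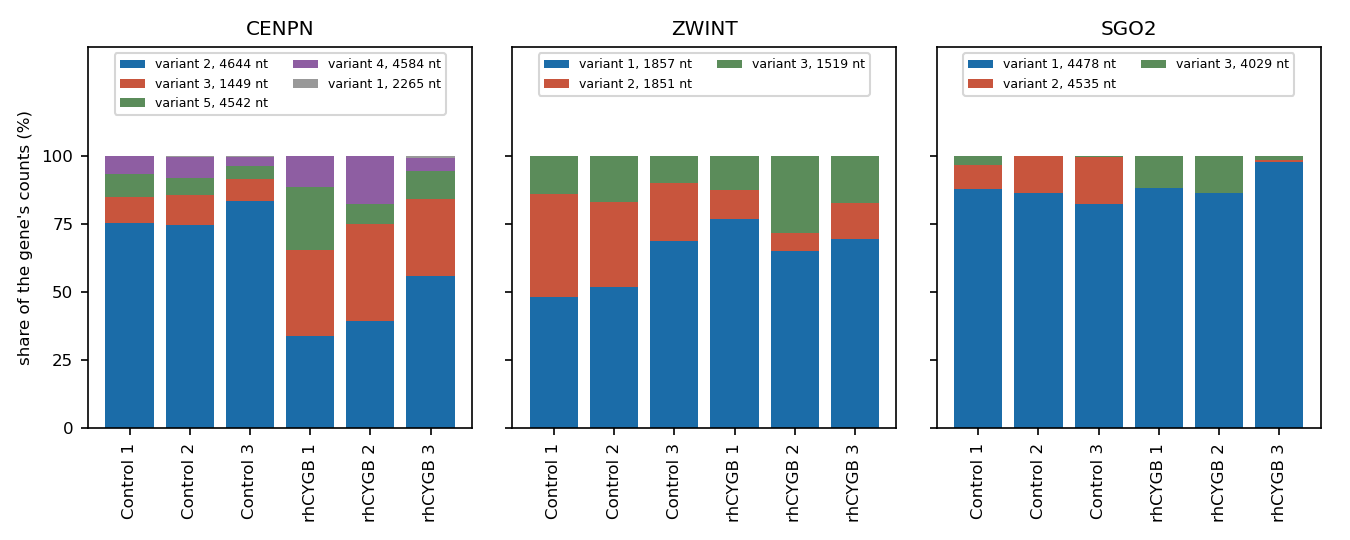
Share of each transcript variant in the counts of its gene (vertical axis, percent) in the 3 Control and 3 rhCYGB libraries, for CENPN, ZWINT and SGO2, with transcript lengths in the legends. In CENPN, variant 2 holds 77.9% in Control and 43.1% in rhCYGB on average, and variant 3 holds 9.62% and 31.7%. SGO2 variant 2 is at most 0.451% in any rhCYGB library.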

How the data were processed

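Counts per gene and per transcript were deposited by the authors as whole, unnormalized numbers, beside FPKM values, which the authors scaled to transcript length and mapped reads. The submitters' processing notes name FastQC 0.11.7, HISAT2 2.1.0 and StringTie 2.1.3b and only a mouse build, mm10, although the genes are human. No human build is named for the deposited positions, which overlapped GRCh38.p14 for 2 of 38 genes. They were used only to find genes whose spans overlap each other. The 12 TPM columns were not used.

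In R 4.3.3, edgeR 4.0.16 (filterByExpr, TMM, quasi-likelihood test, two-sided) was run over all genes or transcripts on 6 libraries without a block, with Benjamini-Hochberg adjustment. Calls needed an adjusted p under 0.05. CPM carries no prior count. Genes at 0 in every library numbered 15205, and the filter removed 6060 more. DESeq2 1.42.0 and limma 3.58.1 served as alternatives. The fits were tested on simulated counts, where changed transcripts were recovered far less often than changed genes, so the transcript calls are incomplete.

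Libraries of a group differed beyond counting error (chi-square per degree of freedom 4.79 to 6.89), so none was a copy. Variation between libraries of a group was low (common dispersion 0.00300, or 5.48% as a coefficient of variation), so small differences passed.

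The members, lists and alternatives were chosen with earlier results of these data known. Values in every library are given for the 2 lowest and the highest gene of each layer by log2 fold change and members that did not pass. They are also given for all members in the Ndc80, Mis12, Ska and chromosomal passenger complexes. The same holds for the 2 lowest and 2 highest further kinetochore genes, and transcripts that moved apart. Promoters were shown for 8 genes by the same order.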

Additional observations from a re-analysis of the deposited data

How the results depend on the processing

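The 16 alternatives gave 608 values for the 38 genes. Of these, 599 kept their direction and their side of the threshold. MIS12, which did not pass, reversed to 0.0374 without rhCYGB replicate 2 (edgeR, adjusted p = 0.659, range over its alternatives 0.0249 to 0.998) and ranged from -0.0596 to 0.0374 as each library was left out. CENPN lost its call with limma on either FPKM scale, CENPL gained one in 4 settings and MIS12 in 2. Genes lower by 2-fold numbered 22 to 26, and genes lower by the adjusted p 36 to 38. Upper-quartile factors moved the medians of inner kinetochore, outer kinetochore, inner centromere and checkpoint genes to -0.98, -1.63, -1.30 and -1.92, total counts without factors to -1.004, -1.65, -1.33 and -1.95, and log2(FPKM + 0.1) to -0.95, -1.62, -1.31 and -1.91. The same settings moved the median of all genes from 0.00 to -0.15, -0.17 and -0.15, and the share of lower genes among all 2-fold calls from 54.2% to 64.5%, 66.1% and 64.5%. With log2(FPKM + 1) the checkpoint median was -1.64, and 2-fold calls over all genes were 1172 lower and 805 higher in place of 2165 and 1833. The DESeq2 Wald test gave 2 member transcripts higher by 2-fold in place of 1. The cause of these moves was not tested.

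Leaving out each library in turn gave 22 to 23 genes lower by 2-fold, 36 genes lower, medians of -0.90 to -0.78, -1.505 to -1.44, -1.22 to -1.11 and -1.83 to -1.72 in the same order of layers, 19 to 20 further kinetochore genes lower, 26 to 33 member transcripts lower by 2-fold and 1 to 2 higher, the 2 without rhCYGB replicate 3. Replicate numbers are shared by the groups, but the deviations of same-numbered libraries correlated at -0.05, 0.01 and 0.01, so the numbers were not taken as pairs. With the replicate number as a block, 23 genes were lower by 2-fold and 36 lower, 19 further kinetochore genes were lower, and member transcripts lower by 2-fold went from 36 to 25. Counts per library were lowest for SPC24 and SPC25 in rhCYGB, at 45 to 76 and 63 to 112.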

Other observations

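Outside the rule for transcripts, SPC24 and CENPU were singled out after their values were seen. SPC24 variant 1, of 2319 nt, had 787, 840 and 895 counts in Control and 0, 0 and 75 counts in rhCYGB, and did not pass (edgeR with Benjamini-Hochberg adjustment, adjusted p = 0.109). Variant 4, of 2403 nt, had 2, 6 and 4 counts in Control and 47, 39 and 0 counts in rhCYGB. The counts that remained for SPC24 after rhCYGB thus stood almost wholly under variant 4 in libraries 1 and 2 and under variant 1 in library 3, while the gene total was low in all 3. The transcript count of this gene therefore differed between libraries of 1 group in a way the gene count did not.

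CENPU variant 2, of 2432 nt, had 12, 69 and 49 counts in Control and 188, 75 and 132 counts in rhCYGB, while variant 1, of 2494 nt, had 1692, 1859 and 1881 counts in Control and 628, 636 and 697 counts in rhCYGB. Variant 1 fell (log2 fold change -1.36, adjusted p = 0.000191), and variant 2 did not pass (log2 fold change 1.74, adjusted p = 0.121). The share of variant 2 in the CENPU counts was 2.27% ± 1.5 (SD, n = 3) in Control and 16.5% ± 6.3 in rhCYGB, without overlap between the groups. PRIMPOL, a gene whose deposited span overlaps that of CENPU, was also lower after rhCYGB, with a log2 fold change of -0.71.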
